A study of Homo sapiens with 6 samples.

Results

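The ubiquitin conjugating enzyme genes of LoVo cells were examined after knockdown of SRSF11. The genes were those annotated as protein-coding whose symbol begins with UBE2, apart from UBE2L6, which was left out by rule, and this gave 36 of the 58735 genes in the count table. The family was chosen by the measured fall of UBE2E1, so the values of that gene are given as a description without a test. The other members were selected by name alone.

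LoVo is an established human colorectal cancer line. It was transfected with a non-targeting control siRNA (si-NC) or an SRSF11 siRNA (si-SRSF11), and each condition has 3 RNA-seq libraries. SRSF11 is a serine/arginine-rich protein that acts in splicing, and the study used these libraries to ask which splicing events depend on it. The study also ran a gene ontology analysis of differentially expressed genes, with a minimum fold change that was not required here. All 6 libraries come from this 1 line under transient transfection, and the sources do not say which of the study's SRSF11 siRNAs was sequenced or whether the libraries came from separate cultures. The p-values therefore measure only the spread between these libraries, which may be technical.

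Groups were taken from the GEO labels. One display in the study appears to bracket the library names with the conditions exchanged, which would turn the sign of every fold change given here. SRSF11, which the siRNA targets, was lower in the libraries labelled si-SRSF11, the direction that the GEO labels call for.

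The total count was between 14369525 and 16685719 per library. SRSF11 itself was at 87.6, 84.3 and 87.5 CPM (read counts per 1000000 counts, scaled by TMM) in si-NC and at 50.4, 48.5 and 49.5 CPM in si-SRSF11, a log2 fold change of -0.81 (SE 0.054, adjusted p = 6.1e-10 by edgeR). The 12 colorectal epithelial markers summed to between 6123 and 6646 CPM in every library, with the keratins KRT8, KRT18 and KRT19 making up most of the sum. CEACAM5 (means of 1.07 in si-NC and 0.827 CPM in si-SRSF11) and KRT20 (0.701 and 0.815 CPM) were near the floor. Of the 12 markers 3 rose, beside 13.2% of all tested genes. These were CDX2 (0.40, adjusted p = 0.000385), CDX1 (0.31, adjusted p = 0.00118) and HNF4A (0.27, adjusted p = 0.000537). The 6 fibroblast markers summed to 19.7 to 23.2 CPM in si-NC and 24.7 to 29 CPM in si-SRSF11, without overlap. Among them PDGFRB rose, from a mean of 8.89 to 14.5 CPM (0.70, adjusted p = 0.000234). COL1A1 lay lower, at 12.7 and 11.7 CPM, and did not pass the test (-0.12, adjusted p = 0.472). DCN and LUM were at 0 in every library. The 6 immune markers summed to 2.8 to 4.0 CPM in si-NC and 4.22 to 4.72 CPM in si-SRSF11, also without overlap. PTPRC and MS4A1 were at 0. The 3 endothelial markers summed to 1.48 to 2.57 and 0.797 to 2.05 CPM. Mitochondrial genes took 7.0% to 7.3% of counts in si-NC and 8.29% to 8.51% in si-SRSF11, and the part of these marker and mitochondrial shifts in the results below was not tested. In bulk RNA, fewer cells of a kind and less RNA per cell cannot be told apart.

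Ubiquitin reaches its targets through a relay of enzymes. An E1 enzyme activates ubiquitin, an E2 conjugating enzyme receives it on a catalytic cysteine as a thioester, and an E3 ligase brings the loaded E2 to the substrate. The choice of E2 helps to set whether a single ubiquitin or a chain is built and through which lysine of ubiquitin the chain is linked. Related E2 enzymes carry the ubiquitin-like proteins SUMO, NEDD8 and ISG15. UBE2E1, UBE2E2 and UBE2E3 form one branch of the family, with an extended amino terminus before the conserved catalytic core, and UBE2D1 to UBE2D4 form the branch closest to it.

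The coding sequence around the catalytic cysteine is shown for the UBE2E branch, since the fall of UBE2E1 can be assigned to that gene only if reads of the 3 paralogues can be told apart. Each run holds 63 bases of the principal transcript, read from the GENCODE 29 transcripts on GRCh38. Bases 31 to 33 are the cysteine codon. Capitals mark the 18 positions at which the 3 genes are not identical.
UBE2E1: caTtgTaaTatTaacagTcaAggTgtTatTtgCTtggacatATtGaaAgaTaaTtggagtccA
UBE2E2: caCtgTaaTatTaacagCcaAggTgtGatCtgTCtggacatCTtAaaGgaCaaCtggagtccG
UBE2E3: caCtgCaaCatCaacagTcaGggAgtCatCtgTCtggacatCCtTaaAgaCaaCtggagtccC

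These windows lie in exon 5 of 6 of each gene, at chr3:23889136-23889198 for UBE2E1, chr3:23532578-23532640 for UBE2E2 and chr2:181060689-181060751 for UBE2E3, all on the plus strand. UBE2E1 differed from UBE2E2 at 12 of the 63 bases and from UBE2E3 at 16. Over the whole coding sequences, the longest stretch that UBE2E1 shared with UBE2E2 was 21 bases, and with UBE2E3 it was 26 bases. The reads were 150 bases long. None of the windows of 100 bases in the longest UBE2E1 transcript occurred in a transcript of another gene (0.0%), and no exon base of UBE2E1 lay in an exon of another gene.

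UBE2E1 in si-SRSF11 was at 55.2% of its si-NC level. It was at 131, 122 and 127 CPM in the si-NC libraries and 73.3, 66.8 and 69.1 CPM in the si-SRSF11 libraries. The lowest si-NC library thus lay far above the highest si-SRSF11 library, and the means were 126 ± 4.41 and 69.7 ± 3.31 CPM (SD, n = 3). The log2 fold change was -0.86 (SE 0.052, 95% interval -0.97 to -0.75). Among 12770 tested protein-coding genes it ranked 86th from the lowest fold change, and among the 1560 whose si-NC level was at least its own it ranked 3rd. The interval takes no account of the choice of the gene, and the ranks describe that choice and are not a test of it. UBE2E1 (ENSG00000170142) spans chr3:23805903-23891316 and has 11 annotated transcripts, 6 of them coding. The counts are summed over all of them, so an isoform that fell cannot be named from these values.

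The 2 paralogues of UBE2E1 did not pass the test. UBE2E2 was at 38.4, 36.2 and 37.9 CPM in si-NC and at 34.9, 38.9 and 41.4 CPM in si-SRSF11. The conditions overlapped, with a log2 fold change of 0.03 (SE 0.072, adjusted p = 0.768) and a 95% interval of -0.11 to 0.18. UBE2E3 was at 16, 15.1 and 17.2 CPM in si-NC and at 17.3, 19.4 and 19.8 CPM in si-SRSF11. Every si-SRSF11 library was above every si-NC library, but the difference of 0.23 on the log2 scale (SE 0.096, adjusted p = 0.0882) did not pass the threshold of 0.05. Its 95% interval, 0.03 to 0.43, does not show that UBE2E3 kept its level.

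The makeup of the branch is given as a description, since its shares and ratios use the UBE2E1 counts that drew the choice of the family. On CPM divided by gene length in kb, UBE2E1 was at 41.1 in si-NC and 22.7 in si-SRSF11, against 11.5 and 11.7 for UBE2E2 and 5.41 and 6.34 for UBE2E3. UBE2E1 was therefore the most abundant of the 3 per length in both conditions. Its share of the counts of the branch was 70.2% ± 0.497 in si-NC and 54.9% ± 3.01 in si-SRSF11 (SD, n = 3). The ratio of UBE2E1 to UBE2E2 counts was 3.40, 3.37 and 3.34 in si-NC and 2.10, 1.72 and 1.67 in si-SRSF11. The si-SRSF11 replicate 1 library had the highest ratio of the 3 knockdown libraries, still below every control library.

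**Figure D1:**
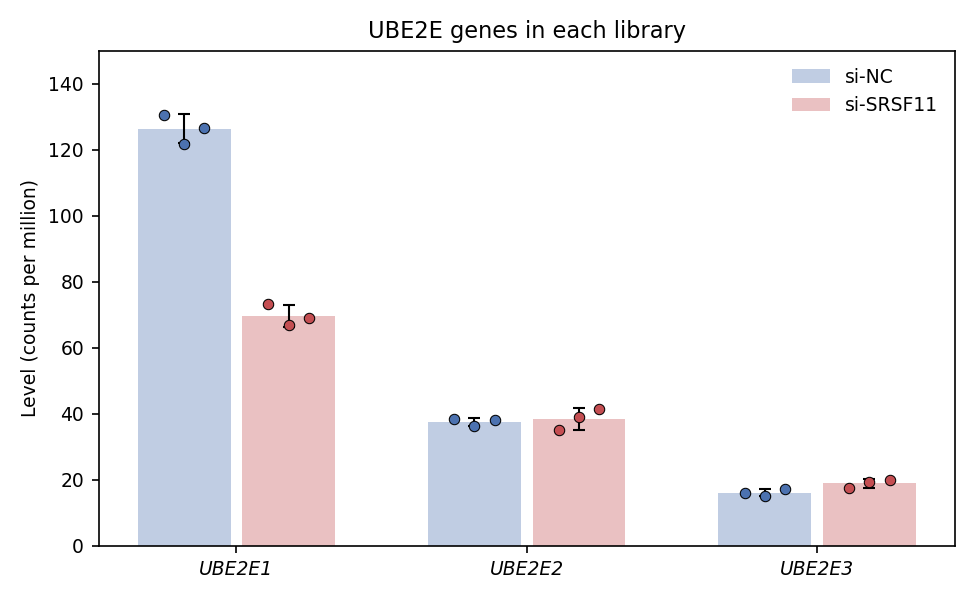
Level in CPM of the 3 UBE2E genes in each library (points), with the mean (bar) and SD (error bar) of the 3 libraries per condition; CPM is not divided by gene length, so heights are to be compared within a gene. The si-SRSF11 points of UBE2E1 sit between 66.8 and 73.3 CPM, below its si-NC points at 122 to 131 CPM, while the points of UBE2E2 overlap.

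The rest of the family moved less than UBE2E1, which is a description, since the fall of UBE2E1 drew the choice of the family. Where other members passed the test, they moved down. Of the 35 other members, 30 had at least 10 counts in at least 3 libraries and were tested. Of these, 9 fell, 0 rose and 21 did not pass (adjusted p under 0.05 by edgeR, over all 15801 tested genes). Over all tested genes, 24.6% were called, 11.4% lower and 13.2% higher. The family is better measured than the average gene, so the same share was taken over protein-coding genes averaging 20 CPM or more, a cut chosen after the values were seen. There, 15.3% of genes were lower and 19.5% higher, and 8 of 26 other members were lower and 0 higher. At an unadjusted p under 0.05, 1 member was higher (UBE2E3), and DESeq2 called 0 higher.

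The median log2 fold change of the 30 members was -0.041, beside 0.0015 over all tested genes and 0.014 over protein-coding genes. Their values ran from -0.53 (UBE2V1) to 0.23 (UBE2E3), and the gap between UBE2E1 and the next lowest member was -0.33. The gap uses the value that drew the choice of the family and is a description. The 95% interval of UBE2V1, -0.87 to -0.19, overlapped that of UBE2E1. The 2 conditions did not overlap for 15 of the 30 members, 12 lower and 3 higher, beside 38.8% of all tested genes. Summed over the family without UBE2E1, the level was 3071 ± 42.5 CPM in si-NC and 2849 ± 93.1 CPM in si-SRSF11. UBE2E1 made up 3.95% ± 0.126 of the counts of the family in si-NC and 2.39% ± 0.174 in si-SRSF11.

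Of the 9 calls, 5 depended on single libraries. UBE2S, UBE2D2, UBE2H and UBE2M passed under every alternative processing tried, whereas the other 5, UBE2V1, UBE2T, UBE2J1 and UBE2C among them, lost the call without at least 1 library. Without si-NC replicate 1, 5 members fell, and without si-NC replicate 3 or without si-SRSF11 replicate 2, 6 fell in each case. In the si-SRSF11 condition, replicate 1 was the lowest library for 6 of the 9 members and replicate 3 the highest for 6. Without si-SRSF11 replicate 1, all 9 still passed. With scaling by library size alone, the split over all genes turned from 2081 higher and 1805 lower to 1585 higher and 2289 lower, and 10 members were lower.

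**Figure D2:**
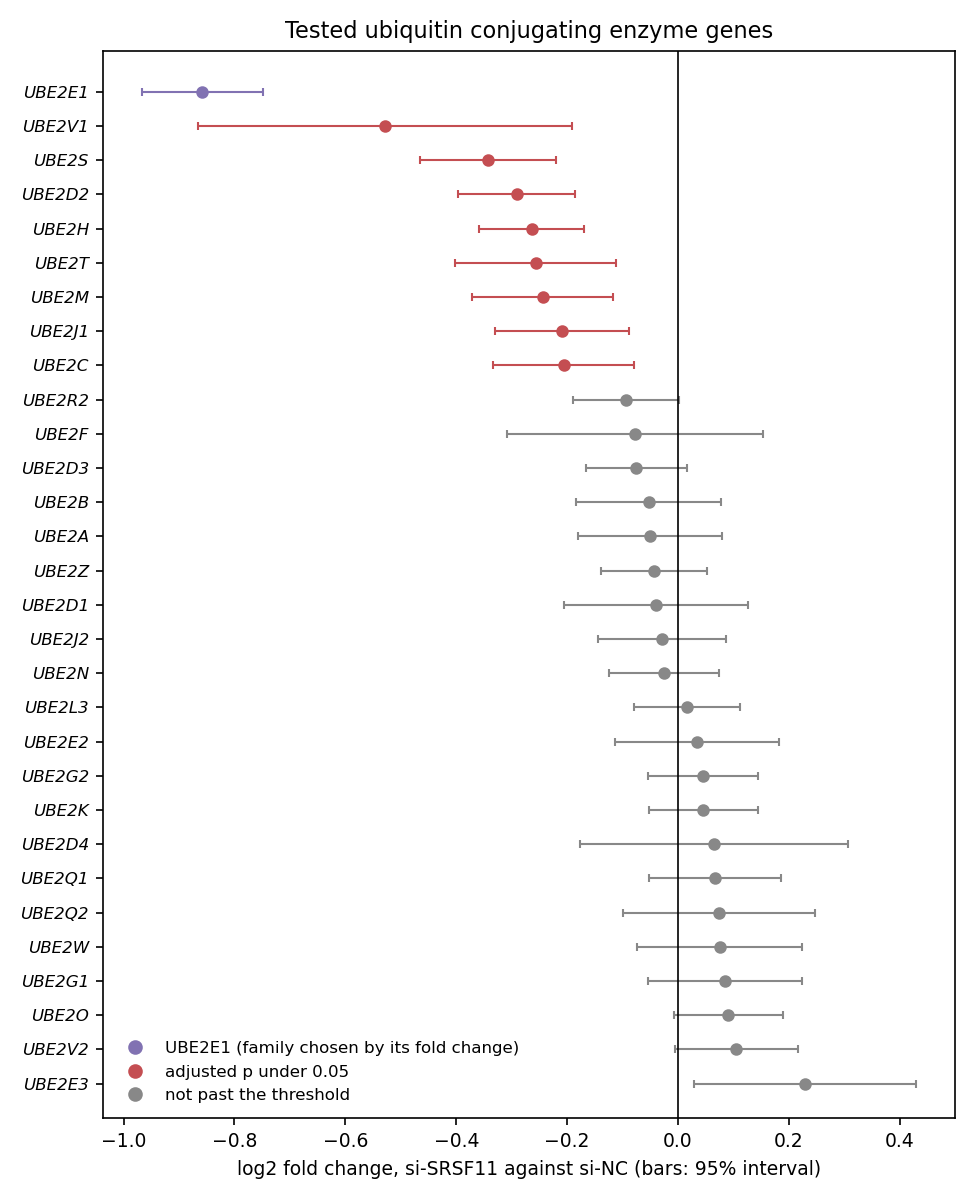
Log2 fold change of 30 of the 31 tested members, si-SRSF11 against si-NC, with the 95% interval as a bar; UBE2E1 is in purple, members past the adjusted threshold in red and the others in grey. UBE2E1 at -0.86, the value that drew the choice of the family, stands below the next member at -0.53. The 8 red members all lie left of 0.

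The E2 enzymes of the anaphase-promoting complex were among those that fell. The complex is the E3 ligase that marks cyclin B and securin for destruction at mitotic exit. UBE2C starts the chains on its substrates, and UBE2S extends them. UBE2S was at 356, 360.0 and 375 CPM in si-NC and at 257, 284 and 319.8 CPM in si-SRSF11 (log2 fold change -0.34, SE 0.059, adjusted p = 0.000196). The knockdown libraries were spread more widely than the controls, but all 3 were below them. Per kb, UBE2S was the most abundant member, at 131 CPM in si-NC. UBE2S has processed pseudogenes, which shared 10.1% of the windows of 100 bases in its longest transcript.

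UBE2C was at 77.1, 73.7 and 80.6 CPM in si-NC and at 64.6, 62.8 and 73.1 CPM in si-SRSF11 (log2 fold change -0.21, SE 0.061, adjusted p = 0.0165). The highest knockdown library was just under the lowest control library. Over the alternatives, its adjusted p ran from 0.000957 to 0.0985. It missed the threshold without si-NC replicate 1 (0.0560), si-NC replicate 3 (0.0909) or si-SRSF11 replicate 2 (0.0985). In the list of 17 subunits and regulators of the complex, 2 genes fell, or 11.8% called beside 24.6% of all tested genes. They were FZR1 (-0.25, adjusted p = 0.00155) and CDC20 (-0.18, adjusted p = 0.0141), the coactivators that bring substrates to it. CDC20 missed the threshold without si-NC replicate 3 (0.0724) or si-SRSF11 replicate 2 (0.103), in a range that began at 0.00096. The median over the list was -0.042.

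UBE2T, the E2 that monoubiquitinates FANCD2 and FANCI in the Fanconi anaemia pathway, was at 42.7, 44.9 and 46.8 CPM in si-NC. It was at 34, 38.9 and 39.6 CPM in si-SRSF11, with no overlap (log2 fold change -0.26, SE 0.070, adjusted p = 0.00955). Its adjusted p ran from 0.0034 to 0.0573 over the alternatives, the last of these without si-NC replicate 3. Of the 12 other Fanconi genes listed, 1 passed the test (8.33%, beside 24.6% of all tested genes). This was FANCF, an adaptor of the core complex, which rose (0.24, adjusted p = 0.0366). FANCF lost the call under 8 of 13 alternatives, DESeq2 and 5 of the single-library omissions among them, with an adjusted p from 0.0364 to 0.128. The list had a median of -0.067.

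In the UBE2D branch, only UBE2D2 of 4 members passed the test. These enzymes work with many E3 ligases and are common partners in assays of ligase activity. UBE2D2 was at 189, 174 and 191 CPM in si-NC and at 146, 149 and 158 CPM in si-SRSF11 (log2 fold change -0.29, SE 0.051, adjusted p = 0.000209). The conditions were clear of each other. UBE2D3, the paralogue with the highest level per length among members that did not pass, was at 369.7, 369 and 369 CPM in si-NC and at 344, 352 and 355 CPM in si-SRSF11. It also had no overlap, with a log2 fold change of -0.08 (SE 0.044, adjusted p = 0.230, 95% interval -0.17 to 0.02). UBE2D1 (-0.04) and UBE2D4 (0.06) overlapped between conditions.

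The same window around the cysteine codon shows how close UBE2D2 and UBE2D3 are. Capitals mark the 18 positions at which the 4 genes of the branch are not identical, although only these 2 are printed.
UBE2D2: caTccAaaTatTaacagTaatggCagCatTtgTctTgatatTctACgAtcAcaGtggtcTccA
UBE2D3: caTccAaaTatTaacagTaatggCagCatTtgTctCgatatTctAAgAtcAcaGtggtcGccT

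The windows are at chr5:139614885-139614947 on the plus strand for UBE2D2 and chr4:102801473-102801535 on the minus strand for UBE2D3. The 2 genes differed at 4 of the 63 bases, and their longest shared coding stretch was 80 bases. This is shorter than a read, and no window of 100 bases in the longest transcript of either was found in another gene. The ratio of UBE2D2 to UBE2D3 counts was 0.511, 0.472 and 0.518 in si-NC and 0.425, 0.422 and 0.446 in si-SRSF11. All 3 knockdown ratios were thus below the controls. This pair was chosen because only one of them was called, so the ratios are a description.

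Both E2 enzymes for NEDD8 were measured, and only UBE2M passed. NEDD8 is the modifier that activates cullin-RING ligases, and UBE2M carries it mainly to the cullins that bind RBX1, with UBE2F serving CUL5 through RNF7. UBE2M was at 192, 196 and 204 CPM in si-NC and at 147, 170.2 and 183 CPM in si-SRSF11 (log2 fold change -0.24, SE 0.061, adjusted p = 0.00503). The si-SRSF11 replicate 1 library was far below the other two. UBE2F overlapped between conditions, at 12.9 ± 0.0957 and 12.2 ± 1.45 CPM (log2 fold change -0.08, adjusted p = 0.657, 95% interval -0.31 to 0.15). UBE2F shares 16.2% of its exon bases with the readthrough gene UBE2F-SCLY.

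In the list of 24 neddylation and cullin genes, 5 rose and 1 fell, with a median of 0.033. This was 25% of the list, at the 24.6% of all tested genes. Those with the smallest adjusted p were CUL1, the scaffold of the SCF ligases (0.33, adjusted p = 0.0015), CAND1, which exchanges their substrate receptors (0.20, adjusted p = 0.00714), and CUL4A (0.17, adjusted p = 0.00895). The member that fell was CUL4B (-0.21, adjusted p = 0.0119), named here after its value was seen. CAND1 missed the threshold without si-NC replicate 3 (0.0614), and CUL4B without that library (0.0542) or si-SRSF11 replicate 2 (0.0889), from lowest values of 0.0013 and 0.0025 over the alternatives. CDC34, the E2 that works with the SCF ligases, also fell (-0.23, adjusted p = 0.00132), from 166, 157 and 168 CPM to 137, 135 and 146 CPM. Its relative UBE2R2 was at 131 ± 2.95 and 123 ± 1.43 CPM (log2 fold change -0.09, SE 0.046, adjusted p = 0.147). UBE2R2 passed only with scaling by library size (adjusted p = 0.0434), and over all alternatives its adjusted p ran from 0.0434 to 0.369.

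Among 13 SUMO ligases and proteases, 2 rose and 2 fell (30.8% called, beside 24.6% of all tested genes). RANBP2, a SUMO ligase of the nuclear pore, was at 25.4, 30.9 and 25.8 CPM in si-NC and at 34.7, 35.7 and 35 CPM in si-SRSF11 (0.36, adjusted p = 0.0018). Its conditions did not overlap, although 14.6% of the windows of 100 bases in its longest transcript occur in other genes. SENP5, a SUMO protease, fell (-0.28, adjusted p = 0.00446). The median over the list was -0.014.

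Of the enzymes of the endoplasmic reticulum, UBE2J1 passed and UBE2J2 did not. Both are anchored in the membrane, where misfolded proteins are ubiquitinated for degradation. UBE2J1 was at 76.1, 72 and 76.8 CPM in si-NC and at 69.1, 60.8 and 64.8 CPM in si-SRSF11 (log2 fold change -0.21, SE 0.058, adjusted p = 0.0112). The conditions were close but separate. The adjusted p ran from 0.0024 to 0.0763 over the alternatives and missed the threshold without si-NC replicate 1 (0.0542), si-NC replicate 3 (0.0550) or si-SRSF11 replicate 2 (0.0763). UBE2J2 overlapped between conditions (-0.03, adjusted p = 0.754, 95% interval -0.14 to 0.09). UBE2G1 (0.09) and UBE2G2 (0.04), which serve the same process, also overlapped. In the list of 15 genes for this degradation pathway, 14 were tested. Among them 2 rose and 1 fell (21.4% called, beside 24.6% of all tested genes). These were VCP, the ATPase that extracts substrates (0.28, adjusted p = 9.4e-05), RNF139, a membrane ligase (0.25, adjusted p = 0.0051), and HERPUD1, a scaffold of the ligase complex (-0.16, adjusted p = 0.0154). HERPUD1 missed the threshold without si-NC replicate 1 (0.0653), si-NC replicate 3 (0.0657) or si-SRSF11 replicate 2 (0.0871), from a lowest value of 0.0033. The median was 0.029.

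UBE2V1 had the widest error of the tested members. UBE2N builds lysine-63-linked chains with UBE2V1 or UBE2V2, which lack the catalytic cysteine. UBE2V1 was at 7.79, 7.04 and 5.52 CPM in si-NC and at 4.99, 4.55 and 4.54 CPM in si-SRSF11, with a log2 fold change of -0.53 (SE 0.16, adjusted p = 0.0203). This was the lowest value after UBE2E1, from 74 to 113 counts per library. Its adjusted p ran from 0.0094 to 0.125 over the alternatives. It missed the threshold without si-NC replicate 1 (0.125), si-NC replicate 2 (0.0677) or si-SRSF11 replicate 2 (0.0627). The gene TMEM189-UBE2V1 covers 42.9% of its exon bases and was listed at 0 in every library, and 80.8% of the windows of 100 bases in its longest transcript occur in other genes. Its counts are therefore uncertain.

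UBE2V2 was at 75.6 ± 3.58 CPM in si-NC and 81.3 ± 1.10 CPM in si-SRSF11, higher without overlap but not past the threshold (log2 fold change 0.11, adjusted p = 0.160). UBE2N overlapped between conditions (-0.03, adjusted p = 0.739), and NUDT4 covers 39.5% of its exon bases. Per kb, UBE2V1 was at 1.41 CPM and UBE2V2 at 11.4 CPM in si-NC, and the first value carries the uncertainty of the UBE2V1 counts. Of 11 ligases of DNA damage and lysine-63 signalling, 1 rose and 1 fell (18.2% called, beside 24.6% of all tested genes). BRCA1 fell (-0.27, adjusted p = 0.0164) and HLTF rose (0.18, adjusted p = 0.0462), with a list median of 0.021. BRCA1 missed the threshold without si-NC replicate 3 (0.117) or si-SRSF11 replicate 3 (0.0504), from a lowest value of 0.0078. HLTF lost the call under 10 of 13 alternatives, with an adjusted p from 0.0318 to 0.255. UBE2A and UBE2B, the RAD6 homologues that act with several of these ligases, were both at -0.05 and overlapped between conditions.

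UBE2H, an E2 that works with the CTLH ligase complex, had the tightest fall. It was at 190.0, 193 and 190.0 CPM in si-NC and at 158, 161 and 158 CPM in si-SRSF11 (log2 fold change -0.26, SE 0.045, adjusted p = 0.000184). The difference was many times the spread within either condition. UBE2H kept its call under every alternative, with an adjusted p of at most 0.0023.

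The remaining members overlapped between conditions or missed the threshold. UBE2L3, which serves HECT and RBR ligases, was at 132 ± 1.40 and 133 ± 2.83 CPM (log2 fold change 0.02, 95% interval -0.08 to 0.11). UBE2K, which builds chains on its own, was at 173 ± 5.60 and 179 ± 4.13 CPM (0.05, 95% interval -0.05 to 0.14). With UBE2D3, these were the most abundant per length of the members that did not pass, at 34.3, 33.0 and 36.7 CPM per kb in si-NC. UBE2O, which joins E2 and E3 functions in one protein, was higher without overlap (0.09, adjusted p = 0.173). UBE2Z, which is loaded by UBA6, was at -0.04, and UBE2Q1, UBE2Q2 and UBE2W were at 0.07 each.

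The 5 members under the count filter were UBE2F-SCLY, UBE2L5, UBE2Q2L, UBE2QL1 and UBE2U, with 0 to 3 counts in each library. UBE2L6, the E2 for ISG15, was left out by rule. It had 11, 10 and 10 counts in si-NC and 17, 21 and 14 in si-SRSF11 (log2 fold change 0.65, SE 0.37, adjusted p = 0.221).

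The steps before the E2 enzymes were checked in fixed lists. None of the 10 E1 enzyme genes passed the test by edgeR (0) or by DESeq2 (0), and 0 had an unadjusted p under 0.05. Over all tested genes, edgeR called 24.6%. The median log2 fold change of the E1 genes was 0.017. Of the 11 genes for ubiquitin and its relatives, 3 rose and 2 fell (45.5% called, beside the same 24.6%), with a median of 0.12. ISG15 fell from 483 ± 19.1 to 371 ± 21.5 CPM (-0.38, adjusted p = 7.4e-06). SUMO3 rose from 20.1 ± 0.361 to 25.9 ± 1.24 CPM (0.37, adjusted p = 0.00215).

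The 8 genes for E2 enzymes with other names had a median of -0.13. Among them 2 fell and 1 rose (37.5% called, beside 24.6% of all tested genes). Besides CDC34, these were AKTIP, an inactive E2 variant (-0.34, adjusted p = 0.00968), and UFC1, the E2 for UFM1 (0.20, adjusted p = 0.0282). UFC1 lost the call under 8 of 13 alternatives (adjusted p from 0.0200 to 0.136). AKTIP lost it without si-NC replicate 2 (0.0613) or si-SRSF11 replicate 2 (0.0542), from a lowest value of 0.0055. Over all 9 lists, 26 of 120 tested genes passed, 15 higher and 11 lower, or 21.7% beside 24.6% of all genes. Their median was 0.015. Among protein-coding genes averaging 20 CPM or more, 15.3% were lower and 19.5% higher, and the lists were not cut at that level. Without si-NC replicate 3, 17 list genes passed, and 13 of the 26 kept their call under every alternative.

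**Figure D3:**
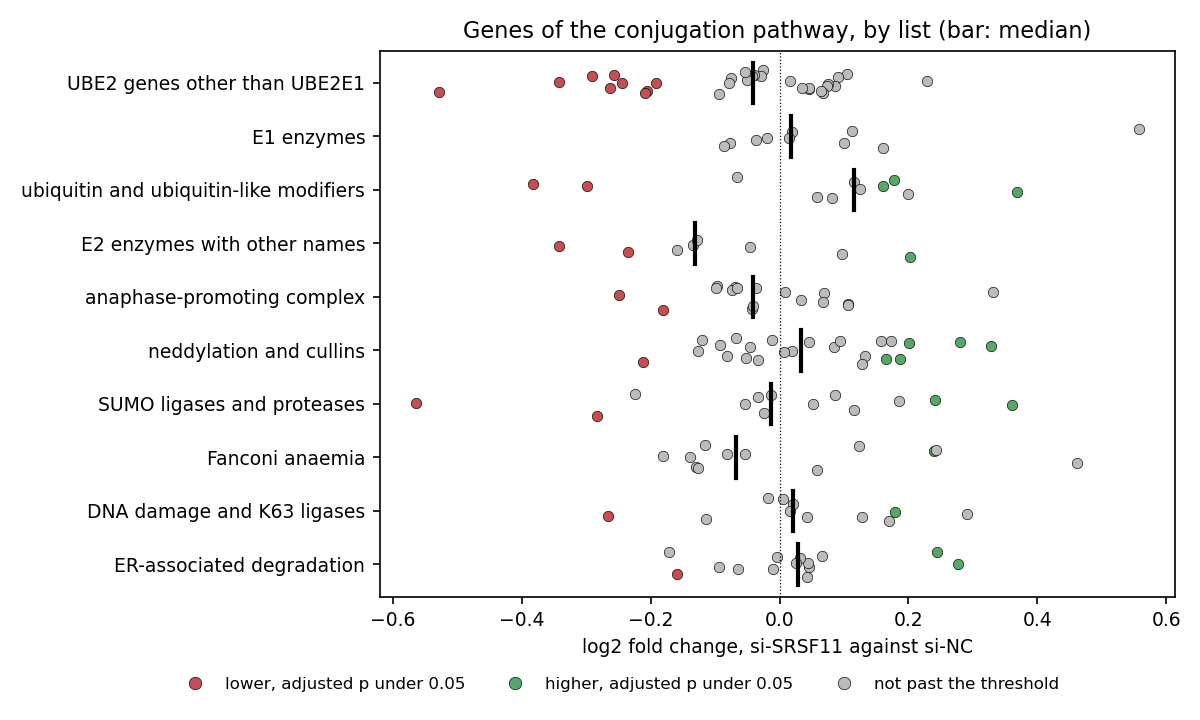
Log2 fold change of each tested gene (point) among the UBE2 genes other than UBE2E1 and in 9 lists of the conjugation pathway, with the median of each list as a bar; red points fell, green points rose and grey points did not pass. The UBE2 row holds 9 red and 0 green points, and the E1 row holds grey points only.

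The genes around UBE2E1 were also read. The span of UBE2E1-AS1 overlaps the start of UBE2E1 on the other strand and had 0 to 5 counts per library, too few to test. The nearest tested gene was NKIRAS1, which lies 344 bases beyond the end of UBE2E1 on the minus strand and encodes an inhibitor of NF-kappaB signalling. NKIRAS1 was at 12, 14.5 and 15.2 CPM in si-NC and at 10.5, 11.1 and 10.9 CPM in si-SRSF11 (log2 fold change -0.36, SE 0.11, adjusted p = 0.0240). It shares 13.0% of its exon bases with RPL15. Its adjusted p ran from 0.0121 to 0.122 over the alternatives and missed the threshold without si-NC replicate 2 (0.0828), si-NC replicate 3 (0.122) or si-SRSF11 replicate 1 (0.0589).

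RPL15, a ribosomal protein gene, was at 1282 ± 35 and 1370 ± 91.2 CPM and overlapped between conditions (0.10, adjusted p = 0.146). It passed only without si-SRSF11 replicate 2 (0.0215), in a range from 0.0215 to 0.384. NR1D2, a nuclear receptor of the circadian clock, fell from 90.4 ± 6.13 to 77.7 ± 0.634 CPM (-0.22, SE 0.055, adjusted p = 0.00581). Without si-NC replicate 1 its adjusted p was 0.0757, the highest of a range that began at 0.0016. UBE2E2 lies 214110 bases before UBE2E1 and did not pass, as described above. Of the 4 tested neighbours, 2 fell, beside 11.4% of all tested genes that were lower. Both fitted changes were smaller than that of UBE2E1, the value that drew the choice of the family.

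**Figure D4:**
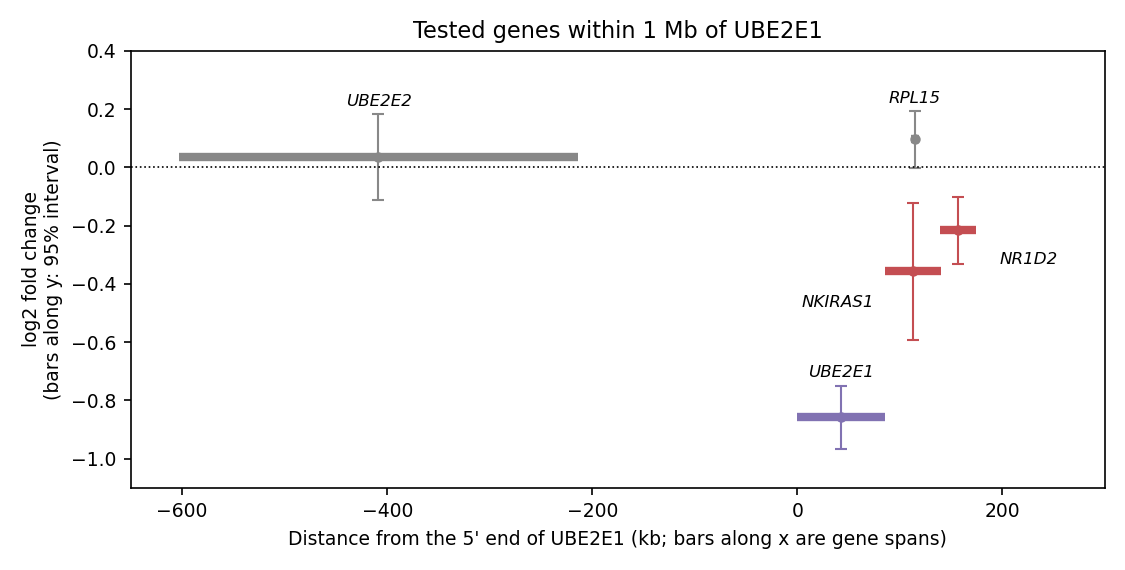
Log2 fold change of UBE2E1 (purple) and of the 4 tested genes within 1 Mb of it, against distance from the 5' end of UBE2E1 in kb; thick bars along the x axis are gene spans and thin bars along the y axis 95% intervals. NKIRAS1 and NR1D2 (red) lie between UBE2E1 and 0, and UBE2E2 and RPL15 (grey) lie above 0.

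Base composition and length were compared within the family as a description. The 9 members that fell had a median GC content of 46.6% in their longest transcript, and the 21 that did not pass had 42.2%. Over all tested genes the values were 53.4% for those lower and 49.2% for those not called. Spearman's rho between log2 fold change and GC was -0.14 over the 30 members and -0.16 over 15794 tested genes, and rho with gene length was 0.26 and 0.11. Genes are not independent replicates. The part of GC and length in the calls was not tested.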

How the data were processed

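LoVo cells were sequenced as polyA-selected, 150 bp paired-end RNA-seq, with 3 si-NC and 3 si-SRSF11 libraries grouped by their labels. The authors deposited raw read counts per gene on hg38. The aligner and counting program are not given in the sources used here. Gene spans and exon lengths were those of GENCODE 29 for 58724 of 58735 genes.

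The filter on low counts (10 or more in 3 or more libraries) kept 15801 genes for edgeR 4.0.16 under R 4.3.3 (TMM scaling, quasi-likelihood test, condition as the only term, Benjamini-Hochberg adjustment over all tested genes, threshold 0.05). CPM were scaled by TMM, and 95% intervals used the degrees of freedom of that test. The procedure was tested on simulated data, and the outcome is not given here. Two-sided exact permutation tests of 3 against 3 libraries cannot go below p = 0.1, so overlap is reported instead. No pair of libraries agreed within sampling noise. Alternatives were DESeq2 1.42.0, 2 other scalings, 2 other filters, protein-coding genes alone, a replicate block and each library left out.

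The members and all lists were chosen with earlier results of these data known. Genes were named by rule. These were SRSF11, the UBE2E genes, every other member past the threshold, and paralogues of those members. Of the members not past it, the largest and smallest changes and the 3 most abundant per kb were named, with members under the filter, up to 3 genes per list past the threshold and the tested neighbours of UBE2E1. A few further members are given by value only. The values of 1 member and of 2 list genes past the threshold are not reported here, although counts, medians and sums include them.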

Additional observations from a re-analysis of the deposited data

How the results depend on the processing

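SRSF11 (-0.84 to -0.79) and UBE2E1 (-0.90 to -0.83) kept their direction under all 13 alternatives, and no called gene named in the text changed sign. DESeq2, upper quartile scaling, no count filter, a minimum of 50 counts and protein-coding genes alone each gave 9 lower and 0 higher members, all 9 shared. With scaling by library size alone, the median of the other members moved from -0.041 to -0.076, as that of all genes moved to -0.033, and UBE2R2 was also called. Leaving out one library, the count of lower members ran from 5 (without si-NC replicate 1) to 9, the median from -0.072 (without si-SRSF11 replicate 3) to -0.023, and the count of called list genes from 17 (without si-NC replicate 3) to 31. With fewer libraries, calls over all genes also fell, to 1473 higher and 1268 lower without si-NC replicate 1. Of the 9 members that fell, 4 kept the call throughout. Of the 21 not past the threshold, 20 stayed so. Of the 26 called list genes, 13 kept the call throughout.

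Deviations of same-numbered libraries had r of 0.0053, 0.044 and 0.053 across conditions, and those of other pairs ran from -0.050 to 0.0050. The same-numbered values of replicates 2 and 3 were thus the highest, but all were small. The replicate numbers were therefore not taken as pairs. With the replicate block, 9 members were lower and 0 higher, and 2147 genes were higher and 1889 lower over all genes, beside 2081 and 1805 without it. It changed no call of a named gene. Depth limited UBE2V1, UBE2F, UBE2D4 and UBE2L6, with wide intervals, and the 5 members under the filter could not be tested.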
